A study of Ovis aries with 20 samples.

Results

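FOS, CXCL8 (older name IL8), PTGS2 and NFKBIA are 4 genes that respond within minutes to hours to stress and inflammatory signals. They were selected on the measured levels themselves, for wide swings between lambs shared by both regions of the heart, so the swings and the likeness of the regions are given here as descriptions without a test. Each gene was read from 1 probe of a sheep array, 4 probes and 4 genes out of 15008 probes and 989 genes that could be named. NFKBIA has 1 probe on the array, and the other genes have 5 further probes that are given where they bear on a value. The samples were heart tissue of newborn singleton lambs on 20 arrays, 5 for each of the groups septum cortisol, septum control, left ventricle (LV) cortisol and LV control. Ewes of the cortisol groups had received cortisol, the main adrenal glucocorticoid, at 1 mg/kg per day from about day 115 of pregnancy up to birth, and ewes of the control groups had received the vehicle over the same period. Hearts of all groups were collected from 10 to 480 min after delivery, at a time that the labels do not give for single lambs. Every title also carried the word telemetry, in cortisol and control alike.

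FOS is a subunit of the AP-1 transcription factor and one of the immediate early genes, which are transcribed at once when a cell is stimulated and whose mRNA is short-lived. CXCL8 is a chemokine that draws neutrophils, PTGS2 (cyclooxygenase 2) makes the precursor of prostaglandins, and both are transcribed through the transcription factor NF-kB. NFKBIA holds NF-kB in the cytoplasm and is itself an NF-kB target, so it closes a feedback loop, and glucocorticoids are known in many cell types to raise NFKBIA and to restrain CXCL8 and PTGS2.

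The identity of each member rests on its 60-base probe, read 5′ to 3′ from the scanner files. For FOS, CXCL8 and PTGS2 bases 31 to 60 are shown, and for NFKBIA the whole probe. Capitals mark the 20 bases that the CXCL8 probe shares with the second CXCL8 probe of the array, whose signal is therefore not fully independent.
FOS A_70_P026731: acttgaatgaaaaatttaagcattgtttgc
CXCL8 A_70_P039662: ctggcctagtCTTGCCCTTATTATGCAATG
PTGS2 A_70_P039256: ttggtgcctcagactatgtatgattaaatt
NFKBIA A_70_P068111: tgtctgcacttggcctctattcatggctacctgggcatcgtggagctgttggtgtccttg
The FOS probe was designed on an expressed sequence tag, and the other 3 on RefSeq transcripts. GC content was 35% for the FOS and PTGS2 probes, 43.3% for CXCL8 and 55% for NFKBIA, against a median of 43.3% over all probes.

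All levels below are log2 of the processed spot intensity minus the 75th percentile of its array, so 0 is the brightness of the 75th percentile and 1 unit is a doubling. On this scale the levels of different probes cannot be set against each other. The scanner software calls a spot well above background or not, and spots that were not are named, because their level lies near the lower end of what the array can measure. An LV array and a septum array with the same treatment and replicate number are called 1 lamb, because each array's deviations resembled those of that partner most, in 10 of 10 lambs. The lambs are named cortisol 1 to 5 and control 1 to 5, and the labels do not say whether a number links cortisol and control lambs. The 75th percentile was 98.4 to 440 intensity units, and 57.9% to 72.1% of spots were well above background. MB (myoglobin), the only named one of 17 heart muscle markers, was well above background throughout. The labels do not state that samples of a group came from separate animals beyond giving 5 per group, so p-values measure the spread between these samples.

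FOS was highest in lamb cortisol 3 and lowest in lamb control 4 in both regions. In septum the cortisol lambs 1 to 5 had FOS levels of -0.84, -2.60, 2.70, -3.06 and 1.30, against -2.93, 0.92, 0.04, -4.14 and -3.74 in the control lambs 1 to 5. In LV the cortisol lambs had -2.16, -2.67, 2.44, -2.48 and 1.33, against -3.93, 0.21, -0.49, -4.37 and -3.32 in control lambs. Lambs cortisol 3 and cortisol 5 lay above every control lamb in both regions, and the other cortisol lambs lay within the range of the controls, so the groups overlapped. The highest and the lowest lamb differed by 6.85 in septum, or 115-fold, and by 6.81 in LV, or 112-fold. One FOS spot, that of control 1 in LV, was not well above background. Without cortisol 3 the range was still 5.45 in septum and 5.70 in LV.

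CXCL8 was likewise highest in lamb cortisol 3 in both regions. In septum its levels were -4.76, -1.03, 2.08, -2.63 and -2.50 in cortisol lambs 1 to 5, against -4.27, -1.22, -1.82, -2.99 and -3.79 in control lambs 1 to 5. In LV they were -5.85, -1.14, 1.20, -3.11 and -2.78 in cortisol lambs, against -4.29, -1.18, -2.18, -3.43 and -6.10 in control lambs. Lamb cortisol 2 stood just above control 2, the highest control lamb, and lamb cortisol 1 was among the lowest, so the groups overlapped in both regions. The spots of cortisol 1 in both regions and of control 1 and control 5 in LV were not well above background. Among the arrays that were, CXCL8 ranged over 6.35 in septum, or 81.5-fold (n = 9), and over 4.63 in LV, or 24.8-fold (n = 7).

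PTGS2 separated lamb cortisol 3 from all the others. Its septum levels were -1.57, -4.11, 1.79, -3.08 and -4.00 in cortisol lambs 1 to 5, against -4.75, -2.18, -2.85, -4.19 and -3.45 in control lambs 1 to 5. In LV they were -4.04, -3.50, 0.83, -5.33 and -3.87 in cortisol lambs, against -4.81, -3.43, -2.73, -5.16 and -4.59 in control lambs. In LV the level of cortisol 3 exceeded that of the next lamb, control 3, by several units, and the remaining cortisol and control lambs were intermingled in both regions. PTGS2 was well above background on 10 of 10 septum arrays and on 5 of 10 LV arrays. Over those arrays its range was 6.54 in septum, or 93.4-fold, and 4.71 in LV, or 26.1-fold, and over all arrays but those of cortisol 3 it was 3.18 in septum and 2.60 in LV.

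NFKBIA swung less and did not have its highest level in cortisol 3. In septum its levels were 1.68, 4.44, 3.15, 1.79 and 3.45 in cortisol lambs 1 to 5, against 2.75, 3.93, 2.73, 3.00 and 1.97 in control lambs 1 to 5. In LV they were 1.99, 4.19, 3.29 and 2.99 in lambs cortisol 1, 2, 3 and 5, against 2.94, 4.19, 3.14, 2.89 and 1.69 in control lambs. The LV spot of cortisol 4 carried the scanner's outlier flag and was left out of the main values. It would have read 0.87, below all other LV arrays. The lamb numbered 2 was the highest of its group in both treatments and both regions, and the groups overlapped throughout. The range was 2.77 in septum (6.81-fold) and 2.501 in LV (5.66-fold), and NFKBIA was well above background on all 20 arrays.

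**Figure D1:**
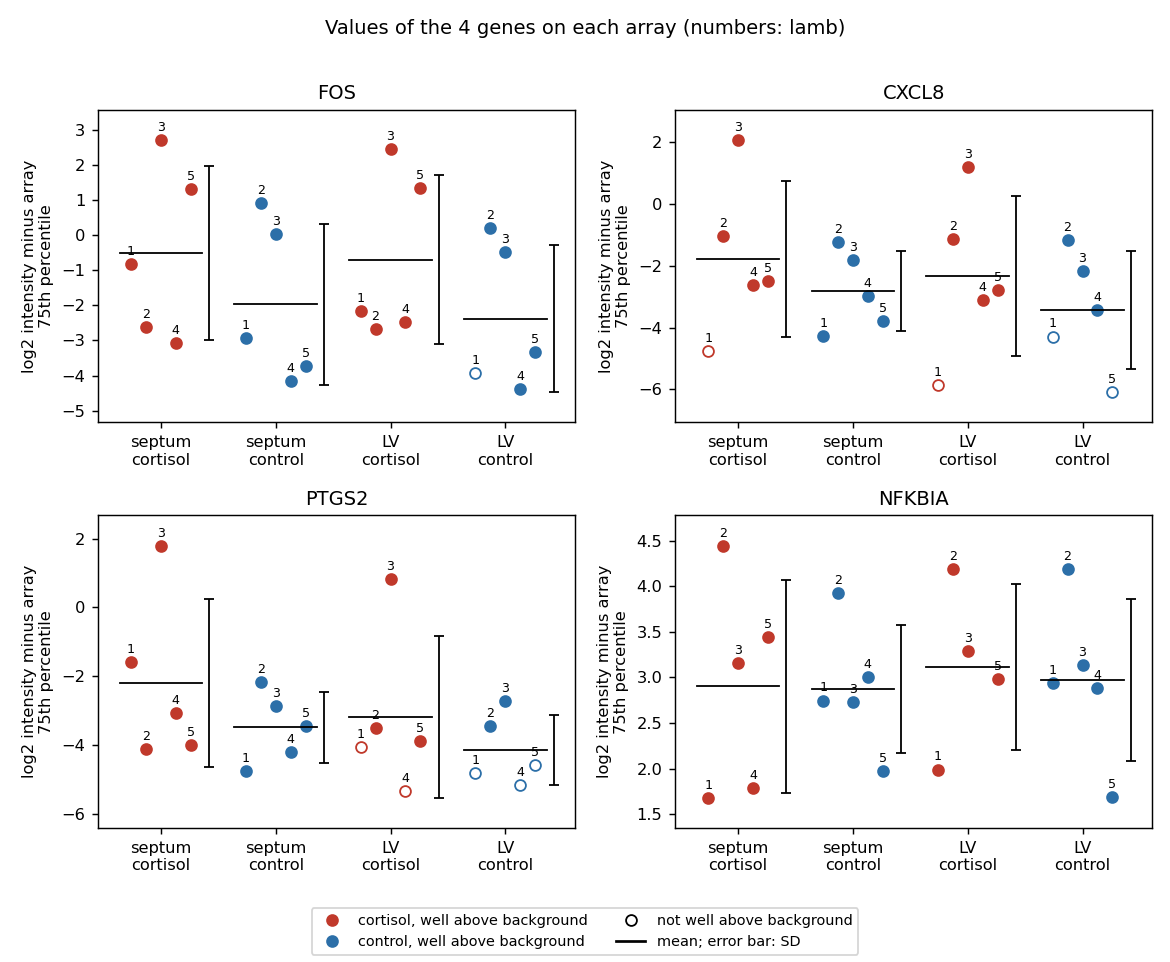
Level of FOS, CXCL8, PTGS2 and NFKBIA on each array, as log2 intensity minus the array's 75th percentile (vertical axis), in septum and LV of cortisol (red) and control (blue) lambs. Numbers name the lamb, open points are spots not well above background, and lines and error bars are the mean and SD. Lamb cortisol 3 is the highest point for FOS, CXCL8 and PTGS2 in both regions, and cortisol and control points overlap for every gene.

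Set beside the whole array, the spread of these probes among lambs of the same group was wide, as their selection implies. The SD within groups of FOS was 2.39 in septum and 2.26 in LV, and 0.231% and 0.327% of the probes tested had a larger one. The share of probes with a larger SD was 0.424% in septum and 0.306% in LV for CXCL8, 0.550% and 0.633% for PTGS2, and 6.41% and 8.04% for NFKBIA. The median SD within groups over all probes tested was 0.40 in septum and 0.42 in LV.

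The 2 regions of a lamb followed each other closely for 3 of the 4 genes. The correlation of septum with LV over lambs was r = 0.968 for FOS (Spearman's rho 0.939, n = 10), 0.952 for CXCL8 (rho 0.964, n = 10), 0.846 for PTGS2 (rho 0.576, n = 10) and 0.937 for NFKBIA (rho 0.833, n = 9), where the median over 9929 probes was 0.720. Without lamb cortisol 3 it was 0.951 for FOS, 0.937 for CXCL8 and 0.938 for NFKBIA, but 0.356 for PTGS2, whose likeness of regions thus rested on that lamb. The arrays lay on 4 slides. For the 6 lambs with septum on slide 1 and LV on slide 3, r was 0.982 for FOS, 0.983 for CXCL8, 0.902 for PTGS2 and 0.977 for NFKBIA. Lamb cortisol 3 is among these 6, and r was not computed for them without it. A lamb's arrays share its heart, its RNA handling and, in some lambs, a slide, and the part of each was not tested.

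**Figure D2:**
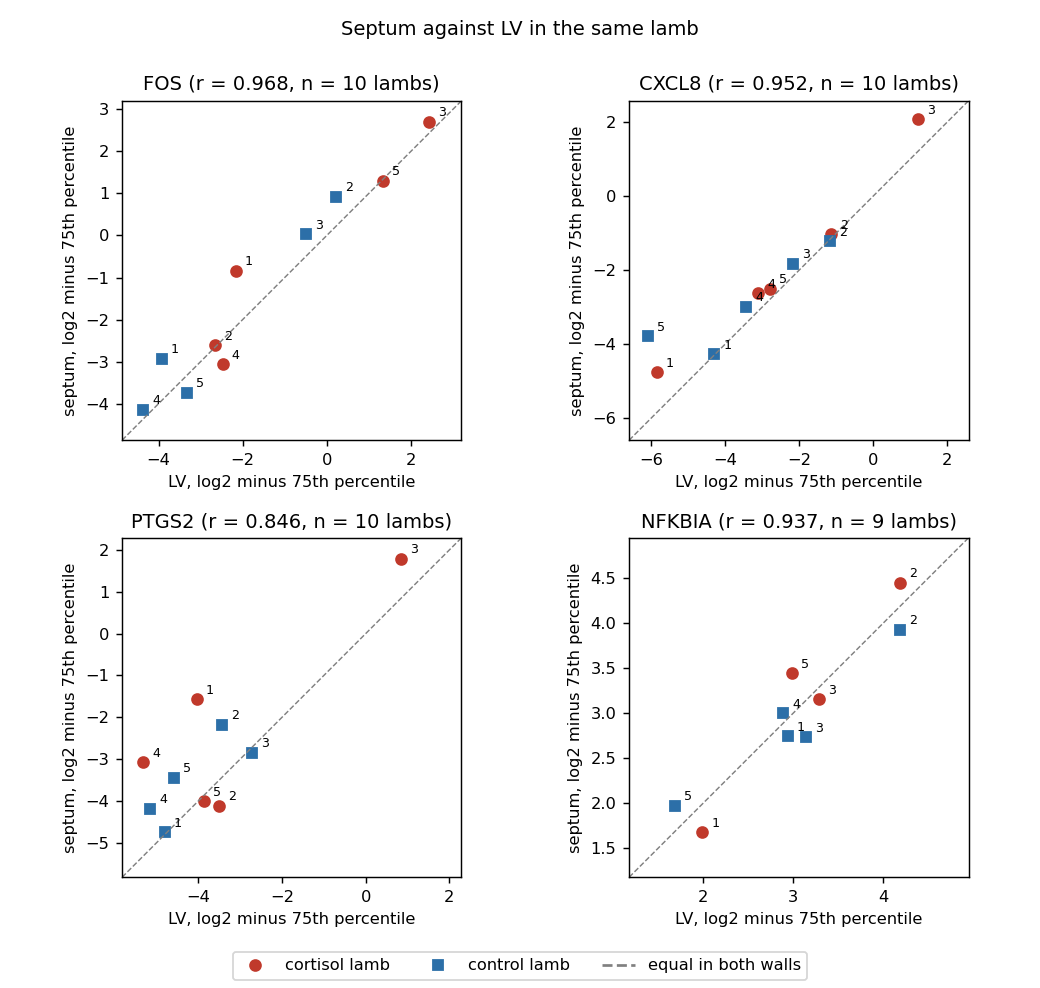
Septum level (vertical axis) against LV level (horizontal axis) of the same lamb, both as log2 intensity minus the array's 75th percentile, with cortisol lambs as red circles and control lambs as blue squares. The dashed line marks equal levels. FOS, CXCL8 and NFKBIA points run along the line, and for PTGS2 lamb cortisol 3 lies far from a cloud with no clear slope.

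Among themselves the members went together to different degrees. FOS correlated with PTGS2 at r = 0.690 in septum and 0.784 in LV (n = 10), and without lamb cortisol 3 at 0.458 and 0.667. CXCL8 correlated with NFKBIA at 0.557 in septum (n = 10) and 0.801 in LV (n = 9), and without that lamb at 0.765 and 0.958. CXCL8 with PTGS2 gave 0.659 in septum and 0.745 in LV, but -0.03 and 0.489 without cortisol 3. FOS with CXCL8 gave 0.629 in septum and 0.672 in LV, and 0.346 and 0.462 without that lamb. NFKBIA correlated with FOS at 0.313 in septum and 0.332 in LV, and the same without cortisol 3. With PTGS2 it gave -0.08 in septum and 0.306 in LV (Spearman's rho -0.212 and 0.717). Without cortisol 3 this pair came to -0.336 in septum and 0.482 in LV, so the regions differed. When the deviations of the 4 genes from their region means were averaged per lamb, lamb cortisol 3 came to 3.25, control 2 to 1.22, cortisol 5 to 0.55, control 3 to 0.55 and cortisol 2 to 0.27. The other lambs were negative, with cortisol 1 at -0.88, cortisol 4 at -0.91, control 4 at -1.23, control 1 at -1.35 and control 5 at -1.60.

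Further probes gave mostly the same order of lambs for CXCL8 and, on an overlapping pair, for FOS. The second CXCL8 probe correlated with the first at 0.973 in septum and 0.975 in LV (n = 10). A pair of FOS probes that overlap by 59 bases correlated with the FOS probe above at 0.987 and 0.982 in septum and at 0.895 and 0.931 in LV. The last FOS probe, A_70_P001561, correlated with it at 0.617 in septum and 0.539 in LV. These 3 FOS probes were well above background on 11, 9 and 9 of the 20 arrays. The second PTGS2 probe was not well above background on any array and gave no usable level. In lamb cortisol 3 it read -6.45 in septum and -5.91 in LV, so the PTGS2 swing was seen on the member probe alone.

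The comparison of cortisol with control asks whether raised maternal cortisol in late pregnancy left these genes at another level in the newborn heart. FOS, CXCL8 and PTGS2 averaged higher in cortisol lambs in both regions, by between 0.96 and 1.67 on the log2 scale, NFKBIA was nearly level, and 0 of the 4 genes passed the test in either region. In septum FOS averaged -0.50 ± 2.48 in cortisol lambs and -1.97 ± 2.30 in control lambs (SD, n = 5 each), a difference of 1.47 ± 1.29 (SE), or 2.77-fold, with a 95% interval of -1.37 to 4.32 (limma, adjusted p = 0.822). In LV it averaged -0.71 ± 2.41 in cortisol lambs and -2.38 ± 2.09 in control lambs (SD, n = 5 each), a difference of 1.67 ± 1.21, or 3.18-fold, with a 95% interval of -0.98 to 4.32 (limma, adjusted p = 0.880). The overlapping pair of FOS probes differed by 1.34 and 1.41 in septum and by 0.92 and 0.66 in LV, and A_70_P001561 by 0.85 in septum and 0.16 in LV, so the LV difference was smaller on all 3. In whole tissue, another share of cells that carry a transcript and another amount of RNA per cell cannot be told apart. Of all probes tested, 0 of 10369 passed in septum (0%) and 0 of 9791 in LV (0%) by limma, while 384 (3.7%) in septum and 505 (5.16%) in LV had an unadjusted p under 0.05.

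CXCL8 in septum averaged -1.77 ± 2.53 in cortisol lambs and -2.82 ± 1.29 in control lambs (SD, n = 5 each), a difference of 1.05 ± 1.09 (SE; limma, adjusted p = 0.836). In LV it averaged -2.34 ± 2.60 in cortisol lambs and -3.43 ± 1.90 in control lambs, a difference of 1.099 ± 1.22 (limma, adjusted p = 0.894). The second CXCL8 probe differed by 1.25 in septum and 1.49 in LV. PTGS2 in septum averaged -2.20 ± 2.45 in cortisol lambs and -3.49 ± 1.03 in control lambs, a difference of 1.29 ± 1.02 (limma, adjusted p = 0.818). In LV it averaged -3.18 ± 2.35 in cortisol lambs and -4.14 ± 1.02 in control lambs, a difference of 0.96 ± 0.97 (limma, adjusted p = 0.890). The spread within each group thus exceeded the difference or came close to it. The NFKBIA difference was 0.03 ± 0.53 in septum (limma, adjusted p = 0.993) and 0.15 ± 0.52 in LV, with 4 cortisol lambs (limma, adjusted p = 0.970). With the outlier spot of cortisol 4 kept, the difference turned to -0.30 in LV and to -0.14 over both regions. Its 95% intervals ran from 0.452-fold to 2.30-fold in septum and from 0.499-fold to 2.45-fold in LV.

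Averaging the 2 regions of each lamb gave differences of 1.57 ± 1.23 (SE) for FOS, 1.07 ± 1.13 for CXCL8, 1.13 ± 0.95 for PTGS2 and 0.23 ± 0.51 for NFKBIA (limma, adjusted p from 0.816 to 0.925), where 0 of 10069 probes (0%) were called and 519 (5.15%) fell under 0.05 before adjustment. Exact two-sided permutation tests on the same lamb means gave p = 0.302, 0.476, 0.421 and 0.643, and the smallest p this design allows is 0.00794. The averaged differences of FOS, CXCL8 and PTGS2 moved by over 1.5 times when lamb cortisol 3 was left out, to 0.78 for FOS, 0.15 for CXCL8 and 0.12 for PTGS2, and that of NFKBIA came to 0.20. Leaving out other lambs moved them either way. CXCL8 came to 1.89 without cortisol 1 and to 0.62 without control 5, FOS ranged up to 2.26 without control 2, and PTGS2 up to 1.504 without cortisol 4. NFKBIA came to 0.66 without cortisol 1 and to 0.51 without control 2, and it turned to -0.16 without cortisol 2 and to -0.048 without control 5. In LV alone, PTGS2 without that lamb averaged -4.19 ± 0.79 in 4 cortisol lambs and -4.14 ± 1.02 in 5 control lambs. The arrays of cortisol 3 had a 75th percentile of 154.6 intensity units in septum and 98.7 in LV. These were the lowest in septum and the second lowest in LV. Over the lambs of a region, level and log2 75th percentile correlated at -0.643 in septum and -0.533 in LV for PTGS2. For FOS this was -0.262 and -0.134, for CXCL8 -0.155 and -0.205, and for NFKBIA 0.476 and -0.159. The part of array brightness in the values of cortisol 3 was not tested.

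Within slides, 3 cortisol and 3 control lambs could be compared on slide 1 in septum and on slide 3 in LV. There the difference in septum and in LV was 1.80 and 1.90 for FOS, 1.59 and 1.04 for CXCL8, 2.41 and 2.23 for PTGS2, and -0.13 and -0.18 for NFKBIA, with cortisol 3 among the cortisol lambs of both slides. On slide 2, which held other lambs, PTGS2 differed by -0.39 in septum (2 arrays of each) and by -0.22 in LV (1 cortisol and 2 control arrays), and FOS by 0.97 in septum and 3.23 in LV.

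**Figure D3:**
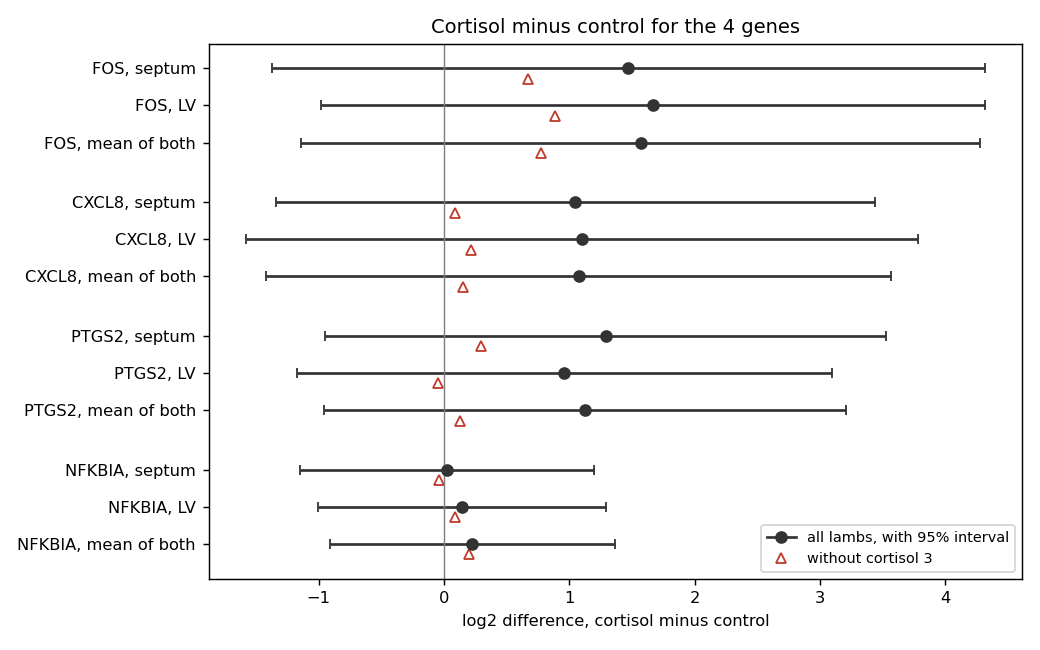
Cortisol minus control (horizontal axis, log2 difference) for each gene in septum, in LV and over the mean of both. Black points and lines are the estimate from all lambs with its 95% interval, and red triangles the estimate without lamb cortisol 3. Every interval spans 0, and for FOS, CXCL8 and PTGS2 the triangle lies nearer to 0 than the point.

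Whether the cortisol difference itself differed between the regions was tested as an interaction. The difference in septum minus that in LV was -0.20 ± 1.91 (SE) for FOS, -0.05 ± 1.76 for CXCL8, 0.33 ± 1.51 for PTGS2 and -0.12 ± 0.80 for NFKBIA (limma, adjusted p = 1.00 each). Over all probes 0 of 10069 (0%) were called, with 38 (0.377%) under 0.05 before adjustment. That fit takes the 2 arrays of a lamb as independent, and for NFKBIA it holds cortisol 4 in septum but not in LV. Over lambs with both walls the NFKBIA value was 0.16. With the lamb as a block the SE was 0.86 for FOS, 0.81 for CXCL8, 0.77 for PTGS2 and 0.38 for NFKBIA (limma, adjusted p = 0.999 each), 0 probes were called and 406 fell under 0.05 before adjustment.

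The comparison of septum with LV asks whether the 2 walls of the same heart differ. CXCL8 was higher in septum in 9 of 10 lambs, PTGS2 in 7 of 10, FOS in 7 of 10 and NFKBIA in 4 of 9. The CXCL8 differences of septum minus LV were 1.09, 0.11, 0.87, 0.48 and 0.28 in cortisol lambs 1 to 5, against 0.02, -0.04, 0.35, 0.44 and 2.31 in control lambs 1 to 5. The widest of them, in control 5 and cortisol 1, rest on LV spots that were not well above background. Over 10 lambs they averaged 0.59 ± 0.70 (SD), and an exact two-sided permutation test over lambs gave p = 0.00586, where the smallest possible p is 0.00195. The second CXCL8 probe was higher in septum in 7 of 10 lambs, with a mean of 0.26 ± 0.99 (SD, exact permutation p = 0.441).

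The PTGS2 differences of septum minus LV were 2.47, -0.61, 0.96, 2.25 and -0.13 in cortisol lambs, against 0.06, 1.25, -0.13, 0.96 and 1.14 in control lambs. They averaged 0.82 ± 1.03 (SD, n = 10, exact permutation p = 0.0293), with the widest, in cortisol 1 and cortisol 4, again resting on LV spots not well above background. The LV spots of control 1, control 4 and control 5 were not well above background either. In the lambs with both walls well above background the differences went either way. They were -0.61, 0.96 and -0.13 in cortisol 2, 3 and 5, and 1.25 and -0.13 in control 2 and 3. FOS averaged 0.31 ± 0.60 (SD, n = 10, exact permutation p = 0.145) and NFKBIA -0.02 ± 0.31 (SD, n = 9, exact permutation p = 0.828). These are 4 of 20 exact tests run on the 4 genes, 2 of which gave a p under 0.05.

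Across all probes the region differences of the 4 genes did not pass. In the limma fit, septum minus LV was 0.59 ± 0.88 (SE) for CXCL8 (adjusted p = 0.864), 0.82 ± 0.76 for PTGS2 (adjusted p = 0.739), 0.31 ± 0.95 for FOS (adjusted p = 0.947) and -0.15 ± 0.40 for NFKBIA (adjusted p = 0.940), while 55 of 10069 probes passed (0.546%), 4 of them higher and 51 lower in septum, and 1264 (12.6%) fell under 0.05 before adjustment. With the lamb as a block, 2065 probes passed, and the adjusted p was 0.320 for CXCL8, 0.137 for PTGS2, 0.651 for FOS and 0.864 for NFKBIA. Region lay largely with slide, since slide 1 held septum arrays and slide 3 LV arrays only. On slide 2, which held both, septum minus LV was 0.77 for CXCL8, 0.42 for PTGS2, -1.08 for FOS and -0.22 for NFKBIA. Slide 2 held the septum array of cortisol 4 but not its LV array, so these values do not compare the same lambs. Within lambs that had both walls on slide 2, FOS differed by -0.03 in cortisol 5, 0.52 in control 3 and -0.42 in control 5. The 3 other FOS probes averaged -0.51, -0.42 and -0.44 for septum minus LV, the opposite sign to the member probe. Many of their spots were not well above background. For the overlapping pair, both walls were well above background in lambs cortisol 3, cortisol 5, control 2 and control 3. There the first of the pair gave 0.27, 0.66, 0.72 and 0.55, and the second 0.39, -0.03, 0.36 and 0.35. For A_70_P001561 this held in cortisol 3, cortisol 5 and control 2, at -0.57, -0.55 and -1.35. In these lambs the overlapping pair thus mostly had the sign of the member probe, and A_70_P001561 the opposite. Together the FOS probes left the direction between the walls unsettled.

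**Figure D4:**
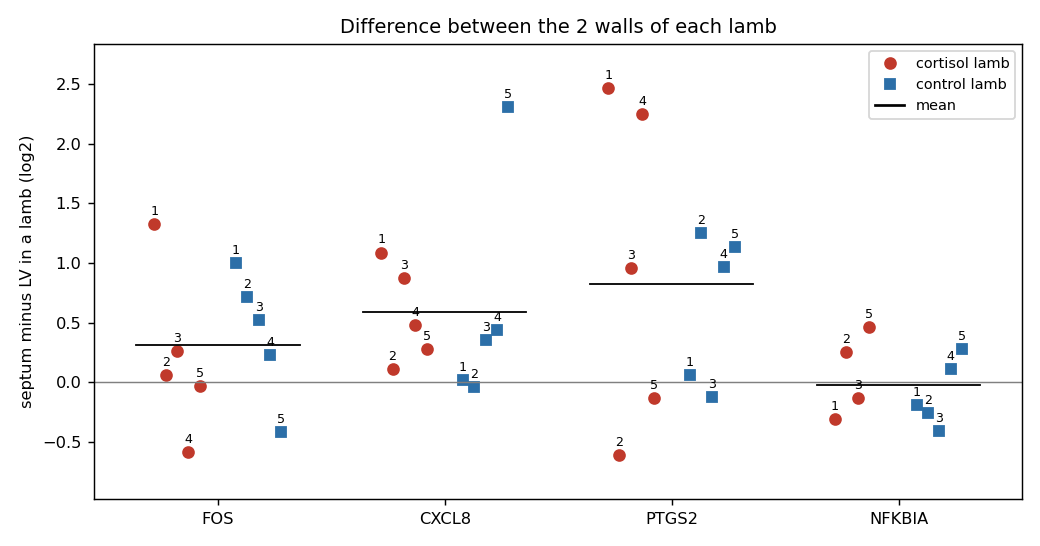
Septum minus LV within each lamb (vertical axis, log2 difference) for the 4 genes, with cortisol lambs as red circles, control lambs as blue squares, numbers naming the lamb and the line giving the mean over lambs. For CXCL8 9 of 10 points lie above 0, and NFKBIA points are scattered about 0.

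Other immediate early genes were taken from a list of 39, of which 8 could be named on the array. All 8 were measured in both regions and 0 of 8 passed in any comparison. Cortisol minus control was positive in 7 of 8 in septum with a median of 0.40, and in 6 of 8 in LV with a median of 0.20. Over all probes the median was 0.03 in septum with 54.7% positive, and -0.01 in LV with 48.7% positive. JUNB, a partner of FOS in AP-1, differed by 1.18 ± 0.72 (SE) in septum and 0.91 ± 0.60 in LV (limma, adjusted p = 0.818 and 0.880). RGS2, which shortens G protein signalling, differed by 0.96 ± 0.50 and 0.85 ± 0.55 (limma, adjusted p = 0.818 and 0.880). ZFP36, an RNA-binding protein that speeds the decay of inflammatory mRNAs, differed by 0.61 ± 0.52 and 0.55 ± 0.46 (limma, adjusted p = 0.818 and 0.885). MYC, a growth-promoting transcription factor, differed by -0.35 in septum and -0.09 in LV. JUN, JUNB, EGR1, ZFP36 and RGS2, 5 of the 8, had their highest level in lamb cortisol 3 in each region, against 19.4% of all probes in septum and 13.4% in LV. The same held for 1 of 5 NF-kB pathway genes in septum and 0 of 3 in LV, for 5 of 11 and 3 of 10 cytokine and acute inflammation genes, and for 1 of 4 and 2 of 4 prostanoid genes. Septum minus LV was negative in 8 of 8 with a median of -0.37, where the median of all probes was 0.01.

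Of 29 NF-kB pathway genes 5 were on the array, and 0 passed. TLR4, the endotoxin receptor, differed by -0.90 ± 0.38 (SE) in septum and -0.22 ± 0.44 in LV (limma, adjusted p = 0.818 and 0.949), and TNFRSF1A, a TNF receptor, by 0.26 ± 0.21 and 0.03 ± 0.18. Of 53 cytokine and acute inflammation genes 22 were on the array, and 11 in septum and 10 in LV passed the filter on dim probes. Cortisol minus control was positive in 7 of 11 with a median of 0.27 in septum, and in 4 of 10 with a median of -0.05 in LV, and 0 passed. ICAM1, which holds leukocytes to the vessel wall, differed by 0.99 ± 0.45 in septum and 1.33 ± 0.69 in LV (limma, adjusted p = 0.818 and 0.880). CXCL1, a second neutrophil chemokine, differed by 0.76 ± 0.38 and 0.94 ± 0.63 (limma, adjusted p = 0.818 and 0.880). IL1B, a main inflammatory cytokine, was highest in lamb cortisol 3 in both regions, at -2.95 in septum and -3.21 in LV. IL6 was not well above background on any of the 20 arrays, and TNF was so on 2.

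In the prostanoid pathway 8 of 21 genes were on the array, 4 of them passed the filter and 0 passed the test. PTGS1, the constitutive cyclooxygenase, differed by 0.20 ± 0.32 (SE) in septum and 0.30 ± 0.33 in LV (limma, adjusted p = 0.879 and 0.894), where PTGS2 differed by 1.29 and 0.96. PTGER3, a prostaglandin E2 receptor, differed by -0.0061 ± 0.28 in septum and -0.24 ± 0.38 in LV, and the receptors PTGER1, PTGER2, PTGER4 and PTGFR were not well above background on any array.

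The genes whose pattern over the 20 arrays was most like the mean of the 4 members were, among 602 named genes measured, ZFP36 (r = 0.906), ACTG1 (gamma actin, 0.854), JUNB (0.848), LYZ (lysozyme, 0.833), CATHL3 (0.826), SLC2A3 (a glucose transporter, 0.818), BAC5 (0.802), NOS3 (endothelial nitric oxide synthase, 0.794), CATHL1B (0.784) and GGTA1 (0.776). Region means were removed first, and the arrays come in pairs from 10 lambs, so these values describe likeness only. Without lamb cortisol 3 they were 0.512 (GGTA1) to 0.875 (LYZ), with ZFP36 at 0.767, JUNB at 0.590 and SLC2A3 at 0.530. SLC2A3 reached 7.68 in septum and 7.05 in LV in lamb cortisol 3, where its medians were 4.48 and 4.39. The least like genes were INHA (-0.740), SLC39A3 (-0.779) and COX5A (-0.838), a subunit of cytochrome c oxidase, and all 3 were lowest in lamb cortisol 3 in both regions.

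Taken singly, FOS was most like LYZ (r = 0.867), ZFP36 (0.861) and VEGFR-1 (0.850), and CXCL8 most like ACTG1 (0.862), NOS3 (0.850) and SQSTM1 (0.813). PTGS2 was most like SLC2A3 (0.862), JUNB (0.850) and ZFP36 (0.824), though without cortisol 3 these came to 0.535, 0.424 and 0.429. NFKBIA was most like other genes altogether, HYAL2 (0.864), CSNK1E (0.831) and CYTH2 (0.738), and these stayed at 0.871, 0.880 and 0.738 without that lamb.

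BAC5, CATHL3 and CATHL1B encode cathelicidins, antimicrobial peptides stored in ruminant neutrophils. They were highest in lamb control 2 and lowest in lamb cortisol 4 in both regions, with BAC5 running from -6.39 to 2.52 in septum and from -6.13 to 2.85 in LV. Lamb cortisol 3 came second for each of them. Its mean deviation from the region means was 3.87 for BAC5, 3.89 for CATHL3 and 3.89 for CATHL1B. Of 15 neutrophil markers 3 were on the array, BAC5, CATHL3 and ITGAM, and ITGAM was not well above background on any array. The summed level of these 3, without CATHL1B, was 0.0282 to 6.37 in septum cortisol, against 0.0784 to 9.98 in septum control. It is on the linear scale, in units of the 75th percentile. In LV this sum was 0.0299 to 4.00 in cortisol lambs, against 0.0962 to 11.5 in control lambs. The 4 of 9 monocyte and macrophage markers on the array, LYZ among them, summed to 0.420 to 0.869 in septum cortisol and 0.355 to 0.936 in septum control, and to 0.405 to 1.01 in LV cortisol and 0.336 to 1.26 in LV control. Lamb control 2, second in the mean of the 4 genes, also had the most HBB, adult beta globin, so that the red cell markers summed to 119 in septum and 124 in LV. Lamb cortisol 3 came second for HBB, at 5.71 in septum and 5.05 in LV. AHSP, the other red cell marker on the array, was highest in cortisol 3, at -0.81 in septum and -1.30 in LV. The part of blood cells in the values of FOS, CXCL8, PTGS2 and NFKBIA was not tested.

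**Figure D5:**
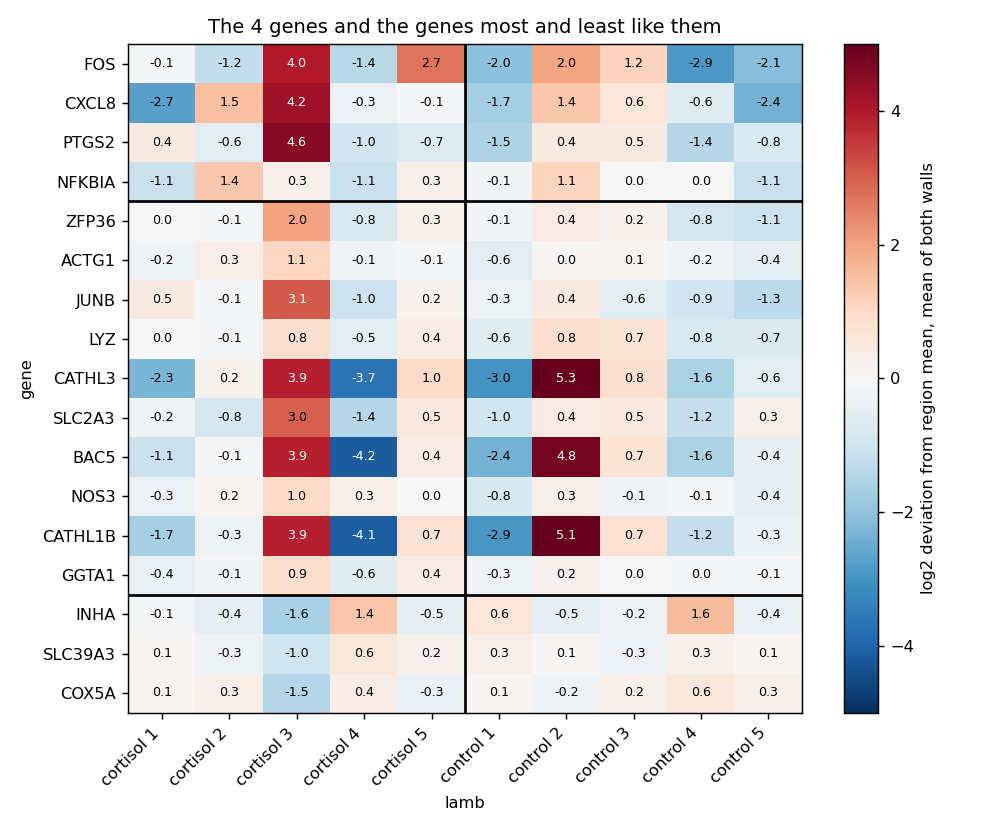
Deviation of each gene from its region mean, averaged over septum and LV of a lamb (colour and printed number, log2), for the 4 genes (top block), the 10 named genes most like their mean (middle block) and the 3 least like it (bottom block). Columns are lambs, cortisol left of control, and the NFKBIA value of cortisol 4 comes from septum alone. Lamb cortisol 3 is high for FOS (4.0), CXCL8 (4.2) and PTGS2 (4.6). The cathelicidins are high in cortisol 3 (3.9 each) and highest in control 2.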

How the data were processed

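RNA of septum and LV was measured on 20 one-colour (Cy3) Agilent sheep arrays, 5 per group. Per the file headers and the submitters' processing notes, Agilent Feature Extraction 10.1.1.1 made the deposited processed intensity of each spot, with background subtracted and no scaling between arrays. The deposited table of log2 values served as an alternative only. The processing notes mention limma, with no version. The build and the probe mapping are not given in the sources used here.

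Here each array's 75th percentile was subtracted from the log2 processed intensities, and spots of a probe were averaged, after control spots and outlier spots were left out. A probe was tested if well above background on 5 of 10 arrays of a region, or on 10 of 20 for both. Two-sided tests were made in R 4.3.3 (limma 3.58.1, statmod 1.5.0) over all probes that passed, at a Benjamini-Hochberg adjusted p under 0.05. The SE of a single contrast is limma's. Version 1.17.8 of data.table read the files, and exact tests and figures used Python 3.11.15 and matplotlib 3.10.9. The fit was tested on simulated data with known changes. Of 15008 probes 1600 (10.7%) were named, by matching RefSeq accessions, gene identifiers, symbols or synonyms to the annotation of ARS-UI_Ramb_v3.0, or from the names in the files. No separate promoter or protein sequences were used here.

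Deviations from group means over 9929 probes correlated at 0.447 to 0.813 between septum and LV arrays that share treatment and number, and these were taken as 1 lamb. The pairing is inferred from the data. Of 4 slides, slide 1 carried septum (6 arrays), slide 3 carried LV (6 arrays), slide 2 carried both (3 of LV, 4 of septum) and slide 4 carried the LV array of cortisol 4 alone. The number of arrays limits the precision.

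The members and lists were chosen with earlier results of these data known. Genes named are the 4 members, every measured gene of a list of up to 12 or its 12 brightest, from which the text gives some, the 10 genes most and 3 least like the members' mean, and 3 per member. IL6 and TNF fall outside that rule and were chosen after their values were seen. Alternatives were another background correction, normalization, scaling and filter, the deposited table, blocks for slide, lamb and replicate number, each lamb left out and, chosen after seeing the data, outlier spots kept.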

Additional observations from a re-analysis of the deposited data

Results flagged for a closer look

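One of 36 groups of 5 arrays examined had a sample far from the others. The second PTGS2 probe, A_70_P039257, read -7.12 (log2 minus the array's 75th percentile) in LV of lamb cortisol 4, with a gap to the next array of 0.777 of the group's range. Chance marks about 1 group in 20. The probe was not well above background on any of the 20 arrays. The LV array of cortisol 4 was the only array on its slide, and a part of the slide in this value was not tested.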

How the results depend on the processing

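The count of probes passing for cortisol against control was 0 in septum, in LV, over both regions and for their interaction under every alternative run. For septum minus LV it was 55, and it became 1 with normexp background, 97 with quantile normalization, 118 without a filter, 2065 with the lamb as replicate block, 0 within slide 2, 0 with slide as a fixed block, and 5 (without control 2, 3 or 4) to 313 (without cortisol 5) with 1 lamb left out, staying below 55 without any other lamb. Cortisol and control arrays of one number were not treated as paired in the main fits, and the labels do not link them. Their deviations correlated weakly but positively, at 0.0577 to 0.273 in septum and 0.0723 to 0.288 in LV. The correlation was over 0.1 in 3 of 5 pairs in septum and 4 of 5 in LV, with the own number highest in 3 of 5 in each. Structure shared by number thus remains possible. With the number as replicate block the LV differences were 1.67 ± 0.94 (SE) for FOS, 1.099 ± 0.74 for CXCL8 and 0.96 ± 0.52 for PTGS2, and 0 probes passed. The main fit had SEs of 1.21, 1.22 and 0.97. None of the 4 genes passed under any alternative run. The filter for spots well above background on all arrays left no value for CXCL8, nor for FOS in LV. Where they had a value, FOS and CXCL8 stayed positive in each region, FOS at 0.54 to 2.20 in septum and 0.88 to 3.23 in LV, and CXCL8 at 0.089 to 1.80 in septum and 0.21 to 1.98 in LV. PTGS2 turned to -0.39 in septum and -0.22 in LV within slide 2. The size of the differences also depended on the background correction. With normexp the LV differences shrank to 0.94 for FOS, 0.48 for CXCL8 and 0.36 for PTGS2. In septum they came to 0.54, 0.82 and 0.60, against 1.47, 1.05 and 1.29 in the main fit.

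NFKBIA, which lies near 0, changed sign often. In septum it was -0.067 with quantile normalization, -0.0066 with median scaling, -0.13 within slide 1 and -0.046 in the deposited table, and -0.36 to 0.33 with 1 lamb left out. In LV it was -0.30 with outlier spots kept, -0.18 within slide 3 and -0.35 in the deposited table, and -0.21 to 0.52 with 1 lamb left out. Over both regions it was -0.14 with outlier spots kept, -0.038 with slide as a block, and -0.16 to 0.66 with 1 lamb left out.

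The interaction turned to 0.34 for CXCL8 and 0.043 for NFKBIA with normexp, to 0.33 for NFKBIA with outlier spots kept and 0.071 with the lamb block, and for PTGS2 to -0.18 within slide 2 and -0.19 with slide as a block. With 1 lamb left out it ran from -0.21 to 0.37 for CXCL8, -0.48 to 9.7e-05 for FOS, -0.30 to 0.16 for NFKBIA and -0.041 to 0.73 for PTGS2. Septum minus LV turned to 0.073 for NFKBIA with outlier spots kept, and for FOS to -1.08 within slide 2 and -0.93 with slide as a block. Of cortisol 4, slide 2 held the septum array only, and the main NFKBIA fits held its septum value only. Over lambs with both walls, NFKBIA came to 0.16 for the interaction and -0.02 for septum minus LV. The cause of these changes was not tested. Values without lamb cortisol 3 for PTGS2 in LV have no test, since the probe then failed the filter, and the deposited table holds no septum value for FOS, CXCL8 and PTGS2 that could be used. Spots near background limit CXCL8 and PTGS2 in LV.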

Other observations

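CXCL10, an interferon-induced chemokine, did not follow the 4 genes. It was highest in lamb control 1 in both regions, at -0.68 in septum and -1.09 in LV, against medians of -6.01 and -4.87. It was well above background on 7 of 20 arrays, so most of its levels lie near the lower end. Its septum and LV levels correlated at 0.941 over 10 lambs, a value not computed without control 1. Its correlation with the mean of FOS, CXCL8, PTGS2 and NFKBIA was -0.270. CXCL1 likewise had a correlation of 0.018 with that mean and was highest in lamb cortisol 3 in septum (4.93) and in cortisol 4 in LV (6.56).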
